A study of Mus musculus with 11 samples.

Results

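Macrophages sorted from subcutaneous tumors were compared with macrophages sorted from the spleens of tumor-bearing mice that carried no Cre. All control (WT) libraries of both sites were used, 7 of the series' 11. The others, labelled KO_TAM, also came from tumors and were not used. There were 4 tumor libraries (WT_TAM, tumor-associated macrophages) and 3 spleen libraries (WT_SP). Of the 35597 genes in the table of the site comparison, the 23105 with positive values could be read, and 12911 of these had enough reads to be tested. Both groups came from C57BL/6 mice aged 6 to 8 weeks with the genotype Sin1fl/fl, in which the gene of Sin1 is flanked by loxP sites but intact. Each mouse had received 500000 cells of Lewis lung carcinoma (LLC), a transplantable mouse lung tumor line, under the skin, and tissue was taken on day 14. The tumor gate was CD45+ Ly6G- Ly6C- CD11b+ F4/80+. The spleen gate was CD45+ TCRβ- Ly6G- Ly6C- F4/80+ with low CD11b, and neither gate names a B cell marker. The labels do not say whether a library is a separate mouse or a pool, so p-values measure spread between libraries alone, and that spread may be technical. The study set the sites side by side to ask about type I interferon signalling in macrophages of the tumor and of the periphery.

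Tumor-associated macrophages arise largely from blood monocytes that enter the tumor and are known for matrix remodelling, angiogenic factors and suppression of T cells. In the spleen, F4/80+ cells with low CD11b are mostly red pulp macrophages. These depend on the transcription factor SpiC, take up old red blood cells, degrade their heme with heme oxygenase and return the iron to the blood through ferroportin.

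Libraries held between 7635413 (WT_TAM replicate 4) and 13075283 (WT_TAM replicate 1) reads in genes with positive values, and 3 reads corresponded to 0.211 to 0.492 CPM (counts per 1000000 reads). Pearson correlations of log2 CPM across genes, which are not independent replicates, ran from 0.981 to 0.988 among WT_SP libraries and from 0.983 to 0.985 among WT_TAM replicates 1 to 3. WT_TAM replicate 4 stood apart from these 3, at 0.911 to 0.919. Its summed CPM of 26 cytosolic ribosomal protein genes was 30747, against 10519 to 11256 in the other WT_TAM libraries and 16460 to 18271 in WT_SP. The mitochondrial genome summed to 11241, 70736, 19133 and 52173 CPM in WT_TAM and to 5954 to 7995 CPM in WT_SP. The part of these differences in the results was not tested, and results that depended on 1 library are given with and without it. None of the ribosomal protein genes was called in either direction by limma or by voom, none had an unadjusted p under 0.05, and all 26 were lower without WT_TAM replicate 4. Of 11 mitochondrial genes, 9 were higher, but 3 without WT_TAM replicate 2, 1 without WT_TAM replicate 4 and 2, 2 and 3 without WT_SP replicates 1, 2 and 3. Mapkap1, the gene of Sin1, was at 81.9, 76.7, 67.6 and 32.5 CPM in WT_TAM and 60.1, 62.7 and 55.9 CPM in WT_SP (log2 fold change 0.03, SE 0.31, adjusted p = 0.939), and without WT_TAM replicate 4 it was higher in WT_TAM (log2 fold change 0.33, adjusted p = 0.0163).

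The sorted samples differed in the summed levels of marker genes of several cell types. Summed over 28 core macrophage genes, the level was 62152, 61871, 53039 and 73154 CPM in WT_TAM and 9569, 9325 and 9301 CPM in WT_SP, a ratio of 6.66. Summed over B cell genes, it was 86.8, 178, 72 and 48.5 CPM in WT_TAM and 10345, 11592 and 11917 CPM in WT_SP, a ratio of 117 in the other direction. Neither pair of groups overlapped, and the exact two-sided permutation test gave p = 0.0571 for both, the smallest it can give with 4 against 3 libraries. In bulk samples, fewer cells of a type, less RNA per cell and lower expression of these genes in each cell cannot be told apart. The core gene Lyz2 alone had a mean of 30708 CPM in WT_TAM and 1796 CPM in WT_SP, a large part of the core sum in WT_TAM.

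**Figure D1:**
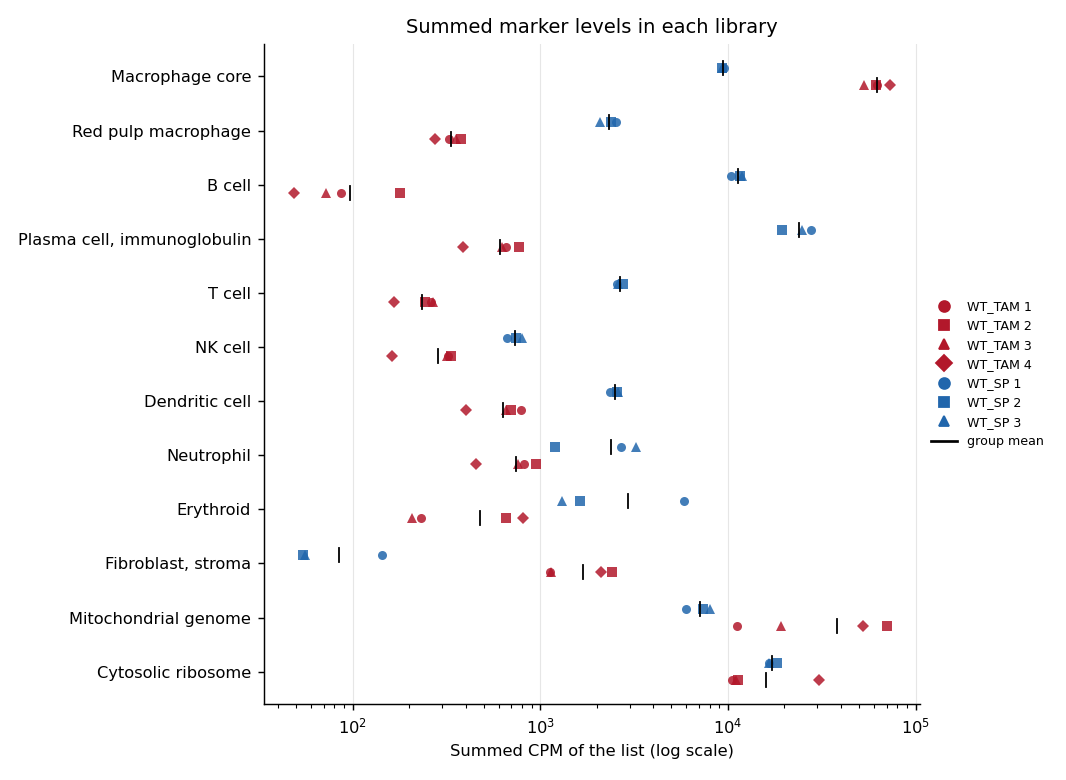
Summed CPM of marker gene lists (log axis) in each of the 4 WT_TAM libraries (red) and 3 WT_SP libraries (blue); black lines are group means. Macrophage core and stromal lists are higher in every WT_TAM library, B, plasma, T, NK, dendritic, neutrophil and erythroid lists are higher in every WT_SP library, and WT_TAM replicate 4 has the highest ribosomal sum, 30747.

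Over all genes, 46.1% of those tested differed between the sites by limma at a Benjamini-Hochberg adjusted p under 0.05, 23.7% higher in WT_TAM and 22.4% lower. The counts were 3054 higher and 2897 lower, and 4492 of the 5951 called genes differed by more than 1 on the log2 scale. The groups did not overlap for 7275 of the genes tested, or 56.3%, so a lack of overlap was common. The shares for each gene list below are read against these backgrounds. Results are given on 2 scales. The first is the authors' own, which sets the median gene equal, and on which the median log2 fold change of all genes was -0.04. On the second, libraries were set equal in the median level of the 28 core macrophage genes, which moved the median of all genes to -2.11. The first compares sorted samples and the second compares genes relative to the macrophage core. The core genes did not move together, since 8 of the 28 were themselves higher and 10 lower on the second scale. A value below the core is thus no measure of the level per macrophage. On the second, 701 genes were higher and 10750 lower. Scaled to library totals alone, 1985 were higher and 4983 lower, and the median of all genes was -0.50. Called genes were more often higher than lower in 27 of the 32 macrophage lists on the authors' scale, in 20 on library totals alone and in 7 on the core scale. Counts for a list below are on the authors' scale unless another is named. A gene that rose by less than this shift on the first scale was thus below the core on the second.

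Genes of lymphocytes were among the strongest decreases. All 18 tested B cell genes were lower in WT_TAM. Cd79a, which encodes a signalling chain of the B cell receptor, was at 3.46, 22.9, 5.51 and 2.46 CPM in WT_TAM and 1885, 1995 and 2287 CPM in WT_SP. Of 14 plasma cell and immunoglobulin genes, 11 were lower and 2 higher, with Ighm (IgM heavy chain) at 68, 105, 55.6 and 16.1 CPM in WT_TAM and 7163, 6312 and 7287 CPM in WT_SP. The higher ones, Sdc1 and Prdm1, are also expressed outside plasma cells.

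T cell genes were lower in 19 of 21, although TCRβ+ cells were gated out of the spleen sample. Cd3e, a chain of the T cell receptor complex, was at 5.57, 7.35, 11.5 and 5.08 CPM in WT_TAM and 98, 99 and 107 CPM in WT_SP. NK cell genes were lower in 10 of 14, and Gzmb was the 1 higher member (log2 fold change 1.23, SE 0.35, adjusted p = 0.0204). That call was lost without WT_TAM replicate 3, WT_SP replicate 1 or WT_SP replicate 2, where limma's adjusted p was 0.054, 0.0794 and 0.0697. Dendritic cell genes were lower in 13 of 20 and higher in 1, Bst2, which interferon also induces. Without WT_TAM replicate 4 the higher count was 2. Ccr7, the receptor that guides dendritic cells and lymphocytes to lymph nodes, was at 33.7, 34.3, 59.9 and 25.1 CPM in WT_TAM and 373, 415 and 413 CPM in WT_SP, with no overlap.

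Erythroid genes were lower in 21 of 24 and none was higher. WT_SP replicate 1 held the most, with a summed level of 5861 CPM against 1619 and 1300 in WT_SP replicates 2 and 3, and the WT_TAM libraries had 207 to 806. Car2, the red cell carbonic anhydrase, was at 7.52, 6.47, 10.3 and 3.61 CPM in WT_TAM and 345, 85.4 and 87.8 CPM in WT_SP. Hbb-bs, a beta globin whose reads can be shared with its near copy Hbb-bt, was at 53.1, 192, 57.2 and 182 CPM in WT_TAM and 1572, 442 and 313 CPM in WT_SP.

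Neutrophil genes were lower in 13 of 19 and higher in 2, a count that was 4 without WT_TAM replicate 4 and 1 when any one of the other libraries was left out. Ngp, a granule protein of immature neutrophils, was at 0, 0.49, 0.175 and 0 CPM in WT_TAM and 604, 241 and 815 CPM in WT_SP. Ly6g, the antigen gated out at both sites, was at 0.0844, 0, 0 and 0 CPM in WT_TAM and 7.96, 2.93 and 11.7 CPM in WT_SP. The libraries of the spleen differed among themselves, with summed neutrophil levels of 2696, 1191 and 3249 CPM. Trem1, a receptor of neutrophils and monocytes, went the other way (469, 655, 514 and 314 CPM in WT_TAM and 7.33, 7.87 and 6.89 CPM in WT_SP). Padi4, an enzyme of neutrophils and macrophages, was the other higher member (log2 fold change 1.92, SE 0.63, adjusted p = 0.0352), and its adjusted p was 0.0626 to 0.123 without any library other than WT_TAM replicate 4.

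Of platelet and megakaryocyte genes, 12 of 15 were lower and 1 higher, Pf4, a chemokine that macrophages also make (289, 556, 394 and 1037 CPM in WT_TAM and 14, 26.5 and 26.7 CPM in WT_SP). Of 17 genes of eosinophils, basophils and mast cells, 4 were higher and 6 lower, and the lower count was 9 without WT_TAM replicate 4. Siglecf, an eosinophil receptor, was at 90.4, 61.5, 59.1 and 3.61 CPM in WT_TAM and 2.4, 1.47 and 1.39 CPM in WT_SP, so WT_TAM replicate 4 held little of it. In the same list, Prg2 was lower (log2 fold change -2.01, adjusted p = 0.00125). Ccr3 and Il5ra did not pass (log2 fold changes -1.55 and -1.46), but were called lower without WT_TAM replicate 4 (adjusted p = 0.00303 and 0.0173). Of 9 endothelial genes, 2 were higher and 3 lower. Over the 10 directions of lists in which limma called 0 genes, voom called 0 as well and at most 1 gene a list had an unadjusted p under 0.05.

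Stromal genes were mostly higher in WT_TAM. Of 22 fibroblast genes, 19 were higher in WT_TAM and 1 lower, and they summed to 1125, 2406, 1142 and 2111 CPM in WT_TAM and to 144, 54.7 and 55.4 CPM in WT_SP. Col3a1, a fibrillar collagen chain, was at 304, 653, 282 and 219 CPM in WT_TAM and 32.6, 2.62 and 2.2 CPM in WT_SP, and Sparc, a matrix protein, at 203, 487, 236 and 759 CPM in WT_TAM and 22.6, 5.48 and 6.67 CPM in WT_SP. All WT_TAM libraries were above all WT_SP libraries for both. Of 10 genes listed for tumor or epithelial cells, 7 were higher and 2 lower, among the former Cdh1, which encodes E-cadherin (log2 fold change 5.56, SE 0.40, adjusted p = 1.3e-05). The lower members were Epcam and Sfn, with log2 fold changes of -1.90 and -3.20. The part of stromal and tumor cells in the macrophage results that follow was not tested.

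**Figure D2:**
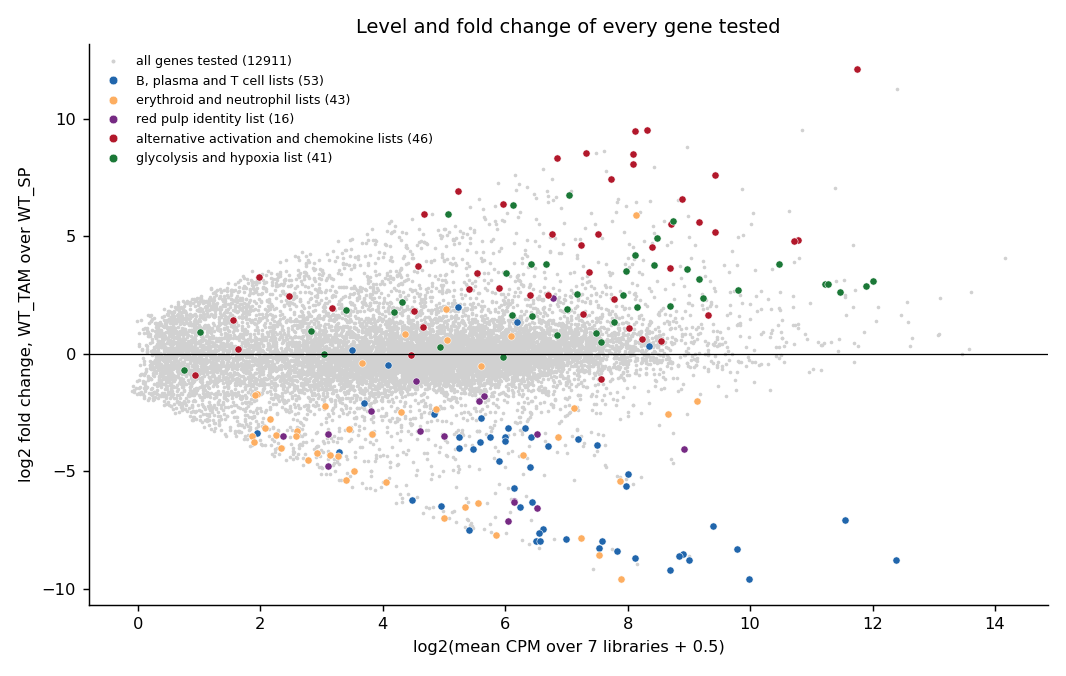
Each grey point is 1 of the 12911 genes tested, with log2 of its mean CPM over 7 libraries plus 0.5 against its log2 fold change of WT_TAM over WT_SP; coloured points are members of the lists named in the key. Lymphocyte, erythroid, neutrophil and red pulp genes lie mostly below 0 and alternative activation, chemokine and glycolysis genes mostly above it.

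Among core macrophage genes, 22 of 28 were higher in WT_TAM and 1 lower, with a median log2 fold change of 2.26 (all genes, -0.04), and by construction near 0 on the core scale (0.06). Lyz2, the lysozyme of myeloid cells, was at 29899, 31990, 25249 and 35695 CPM in WT_TAM and 1630, 1661 and 2098 CPM in WT_SP (log2 fold change 4.09, SE 0.18, adjusted p = 1.19e-06). Cd14, the endotoxin co-receptor, was at 2488, 3276, 2510 and 2762 CPM in WT_TAM and 55.8, 35.1 and 32.9 CPM in WT_SP. Itgam, which encodes CD11b, was at 233, 291, 259 and 187 CPM in WT_TAM and 14.3, 12.2 and 14.4 CPM in WT_SP, in the order that the gates set. Cd68, a glycoprotein of macrophage lysosomes, also rose (2.48).

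The genes of the receptors that define macrophages at both sites did not pass the test. Csf1r, the receptor for the macrophage growth factor CSF1, was at 2161, 2046, 1870 and 1049 CPM in WT_TAM and 1244, 1006 and 960 CPM in WT_SP (log2 fold change 0.69, SE 0.27, adjusted p = 0.0652). Adgre1, which encodes F4/80, was at 707, 577, 486 and 295 CPM in WT_TAM and 341, 276 and 287 CPM in WT_SP (log2 fold change 0.71, SE 0.29, adjusted p = 0.0739). In both, WT_TAM replicate 4 lay within the range of WT_SP and the other WT_TAM libraries lay above it. Without that library both were higher in WT_TAM (Csf1r: log2 fold change 0.93, adjusted p = 2.23e-05, and Adgre1: log2 fold change 0.96, adjusted p = 0.000143). Mertk, a receptor for dying cells, was at 81.2, 75.9, 63.7 and 24.8 CPM in WT_TAM and 71.3, 65.5 and 53.7 CPM in WT_SP, a log2 fold change of -0.17 with SE 0.39. Ptpn6, a phosphatase of all blood cells, was the 1 lower member (log2 fold change -0.65, SE 0.20, adjusted p = 0.0279), a call that needed WT_TAM replicate 3 (adjusted p = 0.064 when it was left out) and each WT_SP library (0.093, 0.0802 and 0.0939).

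The program of red pulp macrophages was the main group of macrophage genes that was higher in the spleen. Of 16 red pulp genes, 15 were lower in WT_TAM and 1 higher, against a background of 22.4% lower, and their median log2 fold change was -3.46, or -5.45 on the core scale. Spic, the factor that red pulp macrophages need, was at 1.27, 2.35, 2.01 and 1.15 CPM in WT_TAM and 159, 175 and 152 CPM in WT_SP (log2 fold change -6.25, SE 0.25, adjusted p = 8.6e-07). Cd5l, a secreted macrophage protein, was at 2.53, 1.96, 2.36 and 0.328 CPM in WT_TAM and 161, 164 and 159 CPM in WT_SP. Itgad, the integrin chain CD11d, was at 0.338, 2.16, 0.262 and 0.328 CPM in WT_TAM and 165, 156 and 135 CPM in WT_SP (log2 fold change -7.13, SE 0.43, adjusted p = 4.89e-06). Every WT_SP library was far above every WT_TAM library for these genes.

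Vcam1, an adhesion molecule of red pulp macrophages, was at 57.4, 79.9, 51.9 and 61.6 CPM in WT_TAM and 1198, 1058 and 896 CPM in WT_SP (log2 fold change -4.06, SE 0.20, adjusted p = 1.83e-06). Hpgd, which inactivates prostaglandins, was at 2.87, 2.74, 4.02 and 0 CPM in WT_TAM and 230, 209 and 188 CPM in WT_SP. Cd163, the receptor for hemoglobin bound to haptoglobin, was at 8.11, 7.64, 4.02 and 2.46 CPM in WT_TAM and 74.8, 81.9 and 41 CPM in WT_SP. The nuclear receptor genes Pparg and Nr1h3 fell by 2.44 and 2.01 on the log2 scale. Rbpj, the transcription factor of Notch signalling, was the exception, at 162, 184, 212 and 109 CPM in WT_TAM and 28.9, 31.1 and 31.9 CPM in WT_SP (log2 fold change 2.39, SE 0.24, adjusted p = 7.38e-05).

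Among iron genes, those of the iron exporter and of heme oxygenase fell and both ferritin genes rose. Slc40a1 encodes ferroportin, the iron exporter of mammalian cells, and lies on chromosome 1 at 45908068 to 45926523 on the minus strand (GRCm38). It was at 1.86, 12.4, 2.97 and 0.328 CPM in WT_TAM and 1155, 1308 and 1114 CPM in WT_SP (log2 fold change -8.60, SE 0.76, adjusted p = 3.93e-05), the largest decrease among called genes with a mean of at least 50 CPM in the higher group that stood in no list of another cell type and were no immunoglobulin or T cell receptor segments. Hmox1, the heme oxygenase that opens the heme ring, was at 398, 565, 440 and 188 CPM in WT_TAM and 1174, 1365 and 1340 CPM in WT_SP (log2 fold change -1.80, SE 0.34, adjusted p = 0.00287). The groups did not overlap for either gene. Of the biliverdin reductase genes, which act next in heme breakdown, Blvra was higher (log2 fold change 0.61, SE 0.15, adjusted p = 0.0115), but not without WT_SP replicate 3 (adjusted p = 0.0762). Blvrb did not pass (log2 fold change -0.23, SE 0.26, adjusted p = 0.496) and was lower without WT_TAM replicate 4 (log2 fold change -0.45, adjusted p = 0.00615).

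The ferritin genes had the opposite direction on the first scale. Fth1, the heavy chain of ferritin, was at 16920, 19168, 14911 and 27559 CPM in WT_TAM and 3023, 3254 and 3040 CPM in WT_SP (log2 fold change 2.62, SE 0.22, adjusted p = 3.05e-05). Ftl1, the light chain, rose by 1.37. Relative to the core the values were 0.42 for Fth1 and -0.83 for Ftl1, so the light chain changed direction. Lrp1, a receptor that takes up heme bound to hemopexin, and Slc39a14, an importer of iron and zinc, rose by 2.78 and 2.14. In all, 9 of 26 iron genes were higher and 8 lower, and the lower count was 4 without WT_SP replicate 1 or 2 and 5 without replicate 3. Their median was 0.08, or -2.09 on the core scale and -0.39 on library totals alone.

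**Figure D3:**
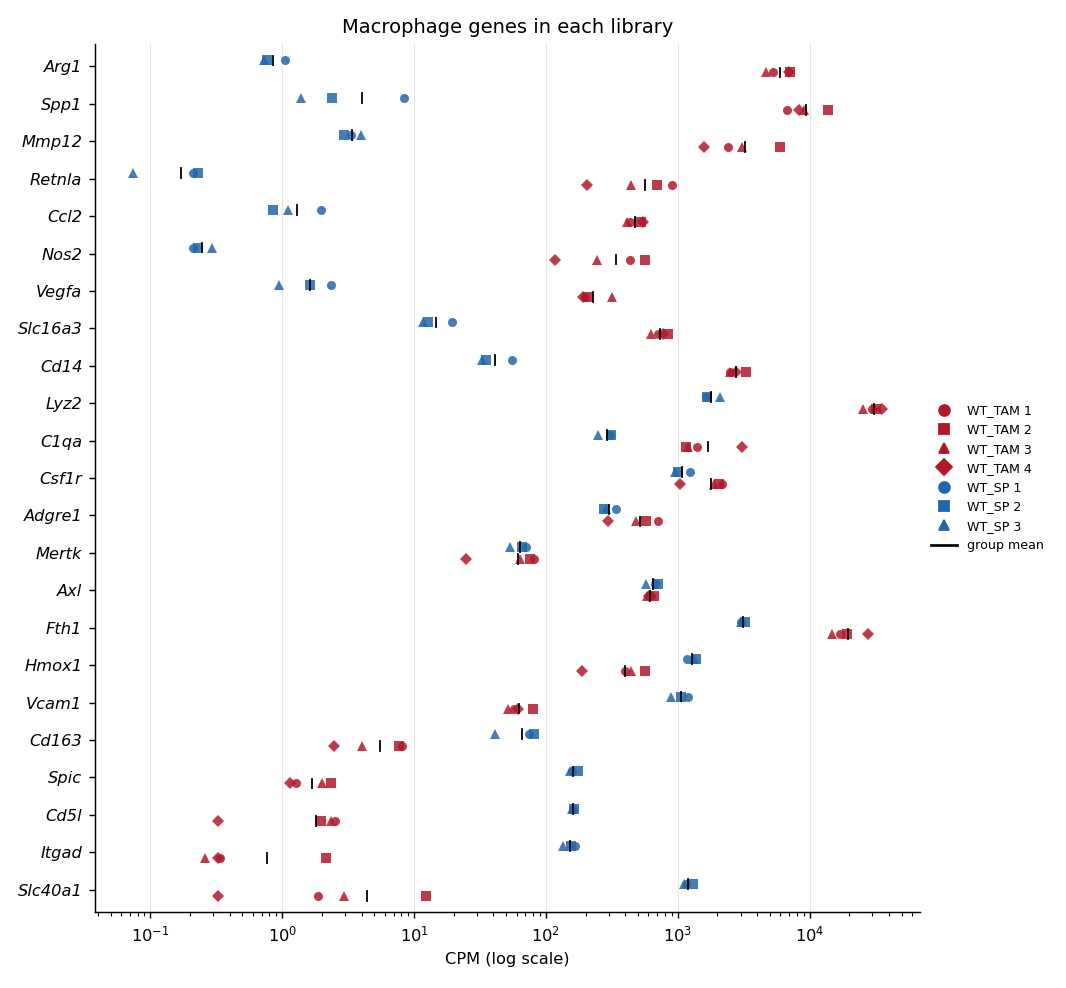
CPM of selected macrophage genes (log axis) in each WT_TAM library (red) and WT_SP library (blue), with group means as black lines. From Arg1 to C1qa, and for Fth1, all WT_TAM libraries lie above all WT_SP libraries, Csf1r to Axl overlap, and from Hmox1 to Slc40a1 all WT_TAM libraries lie below.

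Genes of alternative activation, the program that interleukin 4 induces and that counts arginase as its best known member, held the highest share of higher genes among the 32 macrophage lists. Of 29 tested, 26 were higher in WT_TAM and none was lower (background 23.7% higher), with a median log2 fold change of 3.5 and of 1.33 on the core scale. Arg1, which breaks down arginine, lies on chromosome 10 at 24915221 to 24927484 on the minus strand (GRCm38). It was at 5291, 7052, 4685 and 6933 CPM in WT_TAM and 1.06, 0.772 and 0.733 CPM in WT_SP (log2 fold change 12.10, SE 0.20, adjusted p = 2.49e-08). Every WT_SP library was far below every WT_TAM library.

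Retnla, a secreted protein of alternatively activated macrophages, was at 903, 691, 442 and 204 CPM in WT_TAM and 0.211, 0.232 and 0.0733 CPM in WT_SP. Mgl2, a lectin that binds galactose sugars, was at 610, 399, 436 and 442 CPM in WT_TAM and 1.34, 0.309 and 0.88 CPM in WT_SP. Stab1, a scavenger receptor that also clears dying cells, was at 380, 309, 383 and 397 CPM in WT_TAM and 1.13, 2.16 and 1.69 CPM in WT_SP. In none of these did the sites overlap, and the log2 fold changes were 9.51, 8.52 and 7.44. The members that did not pass were Chil3, Il4ra and Tgfb1. Chil3, a chitinase-like protein, was at 997, 386, 247 and 2127 CPM in WT_TAM and 220, 166 and 278 CPM in WT_SP, and was called higher without WT_TAM replicate 3 (adjusted p = 0.023). Il4ra, the receptor for interleukin 4, was called higher without WT_TAM replicate 4 (log2 fold change 0.75, adjusted p = 5.9e-05). Mrc1, which encodes the mannose receptor CD206, was called (log2 fold change 1.09, SE 0.28, adjusted p = 0.0127), but was below the core, at -1.10, and its adjusted p was 0.0648 without WT_SP replicate 3.

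Inflammatory genes were higher in WT_TAM at the same time. Of 21 inflammatory genes, 17 were higher in WT_TAM and 2 lower, with a median of 3.28, or 1.69 on the core scale. Nos2, which makes nitric oxide from the same arginine that Arg1 uses, was at 437, 566, 243 and 118 CPM in WT_TAM and 0.211, 0.232 and 0.293 CPM in WT_SP (log2 fold change 8.61, SE 0.48, adjusted p = 3.3e-06). Il1b, the gene of interleukin 1 beta, was at 1115, 1849, 1662 and 1021 CPM in WT_TAM and 66.2, 71.6 and 60.9 CPM in WT_SP. Ptgs2, the inducible cyclooxygenase, was at 300, 434, 298 and 50 CPM in WT_TAM and 2.82, 7.49 and 4.47 CPM in WT_SP. The lower members were Il12a (0.591, 1.76, 0.35 and 0.328 CPM in WT_TAM and 10.9, 15.6 and 17.2 CPM in WT_SP) and Il18 (13, 15.5, 12.4 and 18.9 CPM in WT_TAM and 56.4, 61.6 and 53.6 CPM in WT_SP), cytokines that drive interferon gamma production by T and NK cells.

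Chemokine genes gave the highest median of the macrophage lists, 4.62, and 2.47 on the core scale. Of 19, 16 were higher in WT_TAM and 1, Ccl5, was lower. The lower count was 2 without WT_TAM replicate 2 and 0 without WT_SP replicate 3 (Ccl5: adjusted p = 0.058). Ccl2, which draws monocytes through the receptor Ccr2, was at 432, 523, 414 and 541 CPM in WT_TAM and 1.97, 0.849 and 1.1 CPM in WT_SP, and Ccl7, a second ligand of that receptor, at 405, 568, 400 and 578 CPM in WT_TAM and 0.564, 0 and 0.0733 CPM in WT_SP. Cxcl2 and Cxcl1, which draw neutrophils, rose by 7.02 and 7.87. Cxcl14 had no read in any WT_SP library and 52.7, 35.6, 86.8 and 83.4 CPM in WT_TAM, at least 879-fold higher against a floor of 3 reads over the WT_SP group.

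Among 17 receptor genes for chemokines and related signals, 10 were higher and 4 lower, with a median of 2.19 and of 0.15 on the core scale. Ccr2 was at 593, 486, 663 and 232 CPM in WT_TAM and 46.9, 43 and 38.7 CPM in WT_SP. C3ar1 and C5ar1, the receptors for the complement fragments C3a and C5a, rose by 7.95 and 4.99. Of the lower members, Ccr7 and S1pr1 are also lymphocyte genes, Cxcr2 is a neutrophil gene and Gpr183 guides B cells.

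Genes of monocyte-derived macrophages were mixed. Of 19, 9 were higher and 8 lower, with a median of 1.57 that became -0.63 on the core scale. Fn1, which encodes fibronectin, was at 4444, 5506, 4981 and 3661 CPM in WT_TAM and 40.6, 34 and 27.6 CPM in WT_SP (log2 fold change 7.07, SE 0.21, adjusted p = 3.98e-07), and Thbs1, a matrix protein of platelets and monocytes, rose by 5.88. Ly6c2, a marker of inflammatory monocytes whose product was gated out at both sites, was at 56, 43.1, 70.8 and 47.7 CPM in WT_TAM and 149, 149 and 208 CPM in WT_SP. Every WT_TAM library was below every WT_SP library for Ly6c2.

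Of 23 genes of lipid-associated macrophages, cells that take up lipid in fat tissue and tumors, 16 were higher and 2 lower, with a median of 1.97, or -0.23 on the core scale. Spp1, the gene of osteopontin, was at 6768, 13697, 9056 and 8274 CPM in WT_TAM and 8.39, 2.39 and 1.39 CPM in WT_SP (log2 fold change 11.29, SE 0.49, adjusted p = 1.19e-06). Trem2, the lipid receptor that marks these cells, was at 261, 267, 215 and 645 CPM in WT_TAM and 0.846, 1.7 and 0.513 CPM in WT_SP (log2 fold change 7.77, SE 0.41, adjusted p = 2.51e-06). Gpnmb, a glycoprotein of the same cells, rose by 4.90. The lower members were Acp5 and Apoc1, which fell by 1.69 and 4.01 on the log2 scale.

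Genes of matrix remodelling and growth factors were also mostly higher. Of 29 genes of matrix proteases and their inhibitors, 23 were higher and none was lower, with a median of 3.24, or 1.13 on the core scale, and 1 was lower without WT_TAM replicate 1. Mmp12, the macrophage elastase, was at 2386, 5918, 3074 and 1584 CPM in WT_TAM and 3.31, 2.93 and 3.96 CPM in WT_SP (log2 fold change 9.54, SE 0.39, adjusted p = 1.06e-06). Mmp14, a protease anchored in the membrane, was at 443, 499, 486 and 516 CPM in WT_TAM and 8.67, 2.62 and 5.13 CPM in WT_SP. Some members are also fibroblast products, such as Mmp2 and Timp1, whose levels were 155, 314, 139 and 220 CPM in WT_TAM and 9.8, 0.926 and 0.807 CPM in WT_SP for Mmp2 and 82.2, 98.9, 62.8 and 257 CPM in WT_TAM and 1.9, 0 and 0 CPM in WT_SP for Timp1.

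Of 24 growth and angiogenic factors, 18 were higher and 1 lower, with a median of 2.5, or 1 on the core scale. Vegfa, which drives blood vessel growth, was at 198, 208, 319 and 191 CPM in WT_TAM and 2.33, 1.62 and 0.953 CPM in WT_SP (log2 fold change 6.77, SE 0.28, adjusted p = 1.06e-06). Inhba, a subunit of activin, was at 169, 224, 105 and 70 CPM in WT_TAM and 0.282, 0.309 and 0.88 CPM in WT_SP, and Areg, a ligand of the EGF receptor, rose by 4.71. Igf1, a growth factor that resident macrophages make, was the lower member, at 55.1, 30.7, 22.5 and 42.1 CPM in WT_TAM and 86.4, 94.3 and 78.5 CPM in WT_SP (log2 fold change -1.26, SE 0.29, adjusted p = 0.0077).

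Of 8 genes of marginal zone macrophages, which sit where blood enters the white pulp, 2 were higher and 2 lower, with a median of 0.26, or -1.32 on the core scale. On library totals alone the median was -0.08. Without WT_TAM replicate 4, 4 were higher and the median was 0.7, and it was 0.08 without WT_TAM replicate 1, 0.07 without WT_SP replicate 1 and 0.47 without WT_SP replicate 3. Siglec1, a sialic acid receptor, rose by 1.31, and Timd4, a receptor for phosphatidylserine, was at 2.79, 2.25, 15.9 and 1.97 CPM in WT_TAM and 18.7, 27.9 and 36.7 CPM in WT_SP.

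Uptake genes were mostly higher in WT_TAM. Of 25 scavenger receptors and lectins, 19 were higher and 3 lower, with medians of 2.34 on the first scale and 0.16 on the core scale. Msr1, scavenger receptor A, was at 1307, 1428, 1212 and 849 CPM in WT_TAM and 5, 6.18 and 5.43 CPM in WT_SP (log2 fold change 7.61, SE 0.21, adjusted p = 3.98e-07), and Clec7a, the receptor for fungal glucans, rose by 5.17. The lower members were Cd163, Stab2 and Marco, with Stab2 at 0.76, 0.588, 0.962 and 1.8 CPM in WT_TAM and 50.3, 59.4 and 45.3 CPM in WT_SP and Marco, a receptor of marginal zone macrophages, at 2.7, 1.86, 1.49 and 2.46 CPM in WT_TAM and 13.1, 20.9 and 14.6 CPM in WT_SP.

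Complement and Fc receptor genes were higher in 16 of 23 and lower in 4, with medians of 2.34 and 0.15. The C1q genes C1qa, C1qb and C1qc rose by 2.44, 2.51 and 2.18, which is 0.24, 0.31 and -0.02 relative to the core. C3, the central complement protein, rose by 2.59, and the inhibitory Fc receptor gene Fcgr2b by 3.79. C6, a protein of the terminal complement complex, was at 2.03, 1.76, 1.14 and 0.164 CPM in WT_TAM and 86.1, 96.6 and 64.5 CPM in WT_SP. Cd55, which protects cells from complement and is carried by lymphocytes, was at 11.6, 11.1, 10.9 and 1.48 CPM in WT_TAM and 278, 326 and 336 CPM in WT_SP.

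Of 22 genes for the clearance of dying cells, 13 were higher and 2, Timd4 and Stab2, lower, with medians of 1.54 and -0.64. The lower count was 4 without WT_TAM replicate 4. The receptor gene Axl did not differ beyond its spread, at 631, 665, 584 and 605 CPM in WT_TAM and 671, 706 and 573 CPM in WT_SP (log2 fold change -0.06, SE 0.16, adjusted p = 0.777). Its ligand gene Gas6 was at 46.4, 38.8, 24.4 and 45.2 CPM in WT_TAM and 6.2, 7.49 and 7.26 CPM in WT_SP. In the lysosome list, 32 of 39 genes were higher and none was lower, with medians of 1.34 and -0.85. Ctsl, the protease cathepsin L, was at 1161, 2217, 1389 and 1336 CPM in WT_TAM and 51.9, 45.3 and 41.6 CPM in WT_SP (log2 fold change 4.99, SE 0.24, adjusted p = 1.72e-06), and Cd63 rose by 4.62, both also above the core at 2.80 and 2.43. Psap, the precursor of the saposins, rose by 1.40 and was below the core at -0.80.

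**Figure D4:**
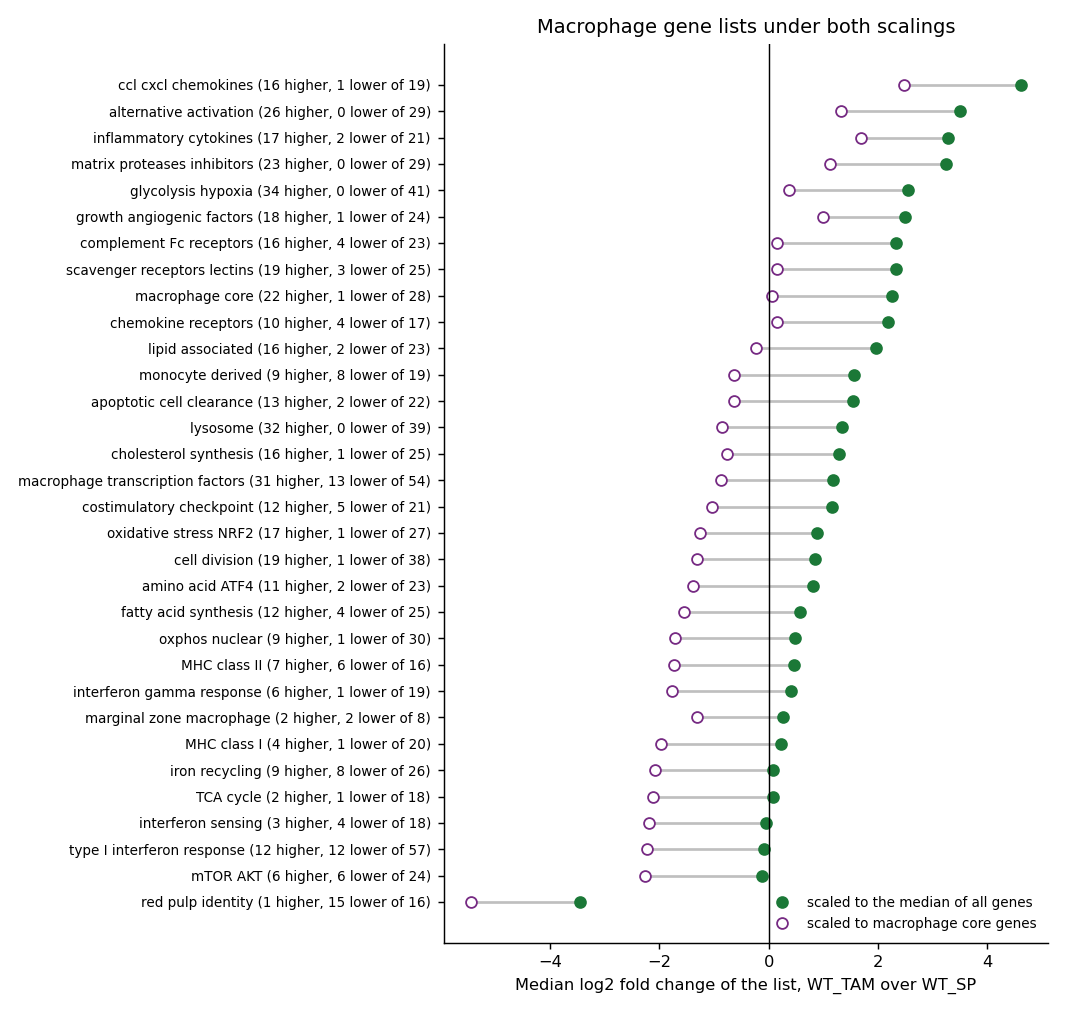
Median log2 fold change of WT_TAM over WT_SP for each of 32 macrophage gene lists, scaled to the median of all genes (filled) and to the core macrophage genes (open), with the counts called of those tested at the left. The chemokine list is highest at 4.62, the red pulp list is lowest at -3.46, and 18 medians lie on opposite sides of 0 under the scales.

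Most glycolysis and hypoxia genes rose. Of 41, 34 were higher in WT_TAM and none was lower (1 without WT_TAM replicate 3), with a median of 2.55 and of 0.37 on the core scale, where 19 were higher and 7 lower. Pkm, Eno1 and Ldha, enzymes at the end of glycolysis, rose by 3.08, 2.90 and 2.63, and Pgk1, which makes ATP in the same pathway, by 3.18. Ldha was at 4214, 5149, 4264 and 4015 CPM in WT_TAM and 744, 690 and 695 CPM in WT_SP. Slc16a3, the lactate exporter, was at 708, 843, 631 and 772 CPM in WT_TAM and 19.4, 12.7 and 11.8 CPM in WT_SP (log2 fold change 5.64, SE 0.21, adjusted p = 7.37e-07). Egln3, a hydroxylase that hypoxia induces, was at 92.8, 177, 100 and 114 CPM in WT_TAM and 0.423, 1.47 and 1.25 CPM in WT_SP. The glucose transporter gene Slc2a1 rose by 3.78, and Slc2a3 did not pass, at 126, 79.5, 56.7 and 9.18 CPM in WT_TAM and 61.3, 47.2 and 52.7 CPM in WT_SP. Every WT_TAM library was above every WT_SP library for Ldha, Slc16a3 and Egln3.

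Promoters of 3 of these genes are shown because the list's members mostly rose and because hypoxia-inducible factors bind DNA at a short core motif, ACGTG on either strand. The sequences are from RefSeq on GRCm38.p6, run from 250 bases before to 50 bases after a transcription start that RefSeq lists for the gene, and are written 5′ to 3′ on the gene's strand. Capitals mark the motif, with overlapping matches joined. Shown are the 3 promoters of members with the highest mean CPM among those with at least 2 matches, so they were chosen for the motif. Pkm and Ldha each have another promoter in the table, at chr9:59656326-59656625 and chr7:46846832-46847131, and neither of these holds a match. The sequences cover chr9:59656977-59657276 (plus strand) for Pkm, chr7:46845554-46845853 (plus strand) for Ldha and chrX:106186850-106187149 (plus strand) for Pgk1.
Pkm: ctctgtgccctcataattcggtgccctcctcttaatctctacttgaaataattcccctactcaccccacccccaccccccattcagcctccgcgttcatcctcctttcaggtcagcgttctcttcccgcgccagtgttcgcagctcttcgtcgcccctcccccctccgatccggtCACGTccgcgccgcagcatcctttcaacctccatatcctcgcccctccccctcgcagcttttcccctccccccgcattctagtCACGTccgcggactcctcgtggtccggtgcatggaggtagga
Ldha: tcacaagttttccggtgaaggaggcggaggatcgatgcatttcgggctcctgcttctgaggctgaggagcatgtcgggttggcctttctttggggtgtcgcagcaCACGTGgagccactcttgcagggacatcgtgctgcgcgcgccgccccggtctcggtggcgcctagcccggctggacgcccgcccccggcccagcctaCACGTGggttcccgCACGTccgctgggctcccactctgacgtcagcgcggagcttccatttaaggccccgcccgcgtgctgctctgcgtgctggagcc
Pgk1: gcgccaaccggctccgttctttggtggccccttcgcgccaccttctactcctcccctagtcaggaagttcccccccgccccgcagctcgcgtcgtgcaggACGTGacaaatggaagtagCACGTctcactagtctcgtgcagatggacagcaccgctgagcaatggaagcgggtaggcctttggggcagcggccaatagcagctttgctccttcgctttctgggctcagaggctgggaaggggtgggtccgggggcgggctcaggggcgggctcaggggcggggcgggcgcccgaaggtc

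The motif lay in 59.2% of the 49 promoters listed for tested members, in 64.3% of the 42 promoters of the higher members, and in 19.6% of all 32851 promoters of the table. A match describes these letters only and is no evidence of binding. Promoters were in the table for 37 of the 41 members.

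Mitochondrial metabolism was covered by 2 lists. Of 30 nuclear genes of oxidative phosphorylation, 9 were higher and 1 lower, with a median of 0.48, or -1.71 on the core scale. The higher count depended on single libraries: it was 17 without WT_TAM replicate 4, 5 without WT_TAM replicate 2 or 3, and 2 without WT_TAM replicate 1 or any WT_SP library. The lower count was 3 without WT_TAM replicate 4. On library totals alone 0 were higher and 3 lower, and on the core scale 0 were higher and 30 lower. Cycs, cytochrome c, was at 131, 137, 143 and 154 CPM in WT_TAM and 84.7, 70.2 and 79.4 CPM in WT_SP (log2 fold change 0.85, SE 0.16, adjusted p = 0.00225). Of 18 genes of the tricarboxylic acid cycle, 2 were higher and 1 lower, with a median of 0.07, or -2.11 on the core scale. Without WT_TAM replicate 4, 9 were higher and 4 lower, and without each other library 1 was higher and 0 lower. On library totals alone 0 were higher and 8 lower, with a median of -0.40, and on the core scale all 18 were lower.

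Lipid synthesis is named in the study's title. Of 25 cholesterol synthesis genes, 16 were higher and 1, Scap, lower, with a median of 1.29, or -0.77 on the core scale. On library totals alone 14 were higher and 3 lower, and on the core scale 0 were higher and 14 lower. With WT_TAM replicate 4 left out 3 were lower, and with WT_TAM replicate 3 or any WT_SP library left out none was (Scap: adjusted p = 0.0685 to 0.109). Sqle, the squalene epoxidase, was at 118, 169, 116 and 83.6 CPM in WT_TAM and 27.6, 22.5 and 18.8 CPM in WT_SP (log2 fold change 2.35, SE 0.26, adjusted p = 0.000127).

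Of 25 fatty acid synthesis genes, 12 were higher and 4 lower, with a median of 0.57, or -1.55 on the core scale. On library totals alone 7 were higher and 7 lower, with a median of 0.12. On the core scale 0 were higher and 19 lower. Without WT_SP replicate 2, and also without replicate 3, 7 were higher and 2 lower. The median was 0.93 without WT_TAM replicate 4. Scd1, a desaturase that makes oleic acid, was at 15.5, 36.7, 18.1 and 19.8 CPM in WT_TAM and 323, 342 and 322 CPM in WT_SP (log2 fold change -3.92, SE 0.28, adjusted p = 1.23e-05). Its paralog Scd2 rose by 1.45, and the sites did not overlap for either. Acss2, which makes acetyl-CoA from acetate, fell by 1.99 on the log2 scale.

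Genes induced by the stress factors ATF4 and NRF2 were higher in 11 of 23 and 17 of 27, and lower in 2 and 1. Their medians were 0.81 and 0.89, and on the core scale -1.38 and -1.25. The lower counts were 4 in each without WT_TAM replicate 4, and for ATF4 the count was 1 without WT_TAM replicate 3 or any WT_SP library. Slc7a2, an arginine importer, was at 602, 614, 358 and 175 CPM in WT_TAM and 5.64, 3.32 and 4.91 CPM in WT_SP (log2 fold change 6.28, SE 0.43, adjusted p = 9.62e-06), and Slc7a11, the cystine importer, was at 135, 156, 116 and 71.2 CPM in WT_TAM and 3.24, 5.4 and 3.23 CPM in WT_SP. The metallothionein gene Mt1 rose by 4.65. Hmox1 was the lower member of the NRF2 list.

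Of 38 cell division genes, 19 were higher and 1 lower, with a median of 0.84, or -1.32 on the core scale. On library totals alone 6 were higher and 3 lower, and on the core scale 0 were higher and 35 lower. The higher count was 12 without WT_TAM replicate 1, 7 without WT_SP replicate 2 and 9 without WT_SP replicate 3, and the lower count was 2 without WT_TAM replicate 4 and 0 without each other library. Ccnb2, a mitotic cyclin, was at 67.2, 53.2, 51.1 and 77.4 CPM in WT_TAM and 26.9, 16.1 and 23.6 CPM in WT_SP (log2 fold change 1.48, SE 0.24, adjusted p = 0.00116). Which of the sorted cells these reads came from cannot be told apart.

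Type I interferon response genes, the subject of the study's question, were called as often in each direction on the authors' scale. These are the genes that interferon alpha and beta induce through a complex that holds STAT2 and IRF9. Of 57 tested, 12 were higher in WT_TAM, 12 lower and 33 did not pass, with a median log2 fold change of -0.09 beside -0.04 for all genes, and of -2.23 beside -2.11 on the core scale. The shares called higher and lower were thus near those of all genes. On library totals alone 5 were higher and 18 lower, and on the core scale 1 was higher and 52 lower. Leaving out 1 library gave 8 to 17 higher and 9 to 14 lower.

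Cxcl10, a chemokine for activated T cells, was the member that rose most, at 209, 170, 203 and 158 CPM in WT_TAM and 4.72, 5.71 and 4.4 CPM in WT_SP (log2 fold change 5.09, SE 0.18, adjusted p = 5.9e-07). Ifitm3, which blocks virus entry, was at 870, 831, 898 and 1381 CPM in WT_TAM and 192, 196 and 240 CPM in WT_SP (log2 fold change 2.22, SE 0.22, adjusted p = 7.44e-05). Ifi204, a DNA sensor of the same family as Ifi203, was at 93.2, 97.8, 110 and 56.6 CPM in WT_TAM and 26.6, 25 and 28.7 CPM in WT_SP, and Ifi203 itself at 36.6, 37.9, 55 and 29.3 CPM in WT_TAM and 115, 130 and 141 CPM in WT_SP. The 2 thus went in opposite directions, with no overlap in either. On the core scale the log2 fold changes were 2.97 for Cxcl10, 0.03 for Ifitm3 and -0.50 for Ifi204, and the last 2 did not pass (adjusted p = 0.912 and 0.122).

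On the lower side, Sp100, a nuclear body protein, was at 117, 118, 124 and 48.4 CPM in WT_TAM and 529, 556 and 578 CPM in WT_SP (log2 fold change -2.53, SE 0.33, adjusted p = 0.000355). Shisa5 and Epsti1 fell by 1.53 and 1.36 on the log2 scale. Irf9, the DNA-binding part of the interferon response complex, was at 76.3, 78.6, 69.1 and 42.5 CPM in WT_TAM and 133, 122 and 135 CPM in WT_SP (adjusted p = 0.00833). These genes are also expressed in lymphocytes, whose markers were also higher in WT_SP, and the part of those cells was not tested.

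Several standard markers did not pass. Isg15, a ubiquitin-like protein, was at 20.4, 31.3, 32.5 and 28.5 CPM in WT_TAM and 24.5, 16.4 and 20.7 CPM in WT_SP (log2 fold change 0.44, SE 0.23, adjusted p = 0.149). Irf7, the factor that amplifies interferon production, was at 141, 199, 172 and 92.1 CPM in WT_TAM and 142, 117 and 153 CPM in WT_SP (log2 fold change 0.09, SE 0.27, adjusted p = 0.811). Ifit1 and Ifit2, which act on viral RNA, overlapped between the sites, with WT_TAM replicate 4 at 3.11 CPM of Ifit1 against 16.6 to 36.5 in the other WT_TAM libraries and 10.6 to 15.7 in WT_SP. Without that library both were called higher (Ifit1: log2 fold change 0.90, adjusted p = 0.0136, and Ifit2: log2 fold change 0.80, adjusted p = 0.000665). Between the deposited tables, 49 values of WT_TAM libraries in 26 genes differ, and 6 of the genes are in this list, among them Isg15, Irf7 and Stat2. In all, 24 of the 26 genes are in the lists used here. They include genes of cholesterol and fatty acid synthesis, interferon sensing and the interferon gamma response. Of the genes given below, Ifnar1 and Gbp2 have 2 such values each. The values used here are those of the site table, which all resolve to whole reads.

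**Figure D5:**
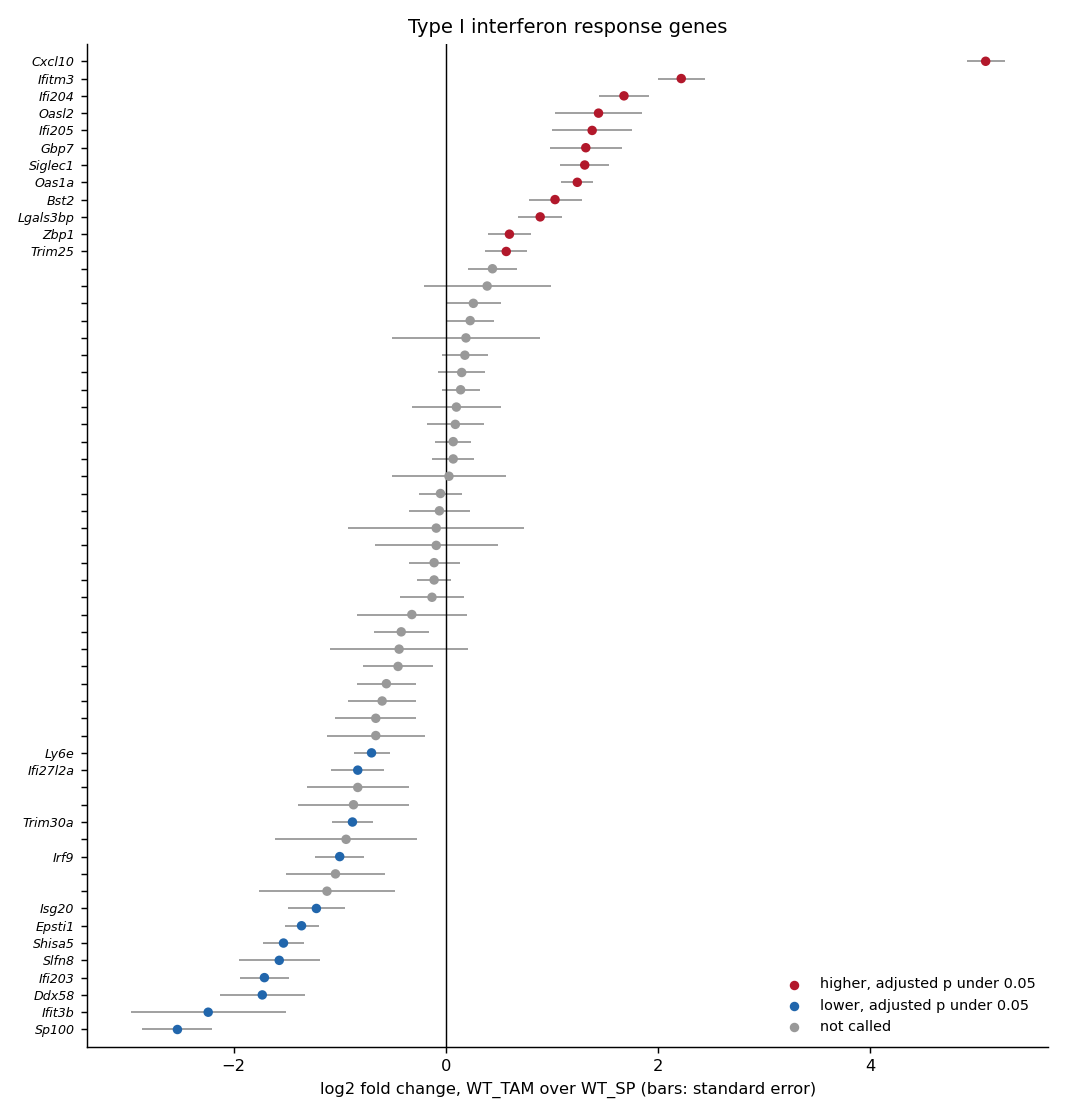
Log2 fold change of WT_TAM over WT_SP with its standard error for the 57 type I interferon response genes tested, in order, with names for those that passed; red and blue points passed the test as higher and lower, grey did not. The 12 higher members run up to 5.09 (Cxcl10) and the 12 lower down to -2.53 (Sp100).

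The promoters of Cxcl10, which rose, and Isg15, which did not pass, are shown because interferon factors bind repeats of GAAA. The motif searched was GAAANNGAA on either strand, with N any base and overlapping matches joined in capitals. The sequences are from RefSeq on GRCm38.p6, at chr5:92348840-92349139 (minus strand) for Cxcl10 and chr4:156200769-156201068 (minus strand) for Isg15, written 5′ to 3′ on the gene's strand.
Cxcl10: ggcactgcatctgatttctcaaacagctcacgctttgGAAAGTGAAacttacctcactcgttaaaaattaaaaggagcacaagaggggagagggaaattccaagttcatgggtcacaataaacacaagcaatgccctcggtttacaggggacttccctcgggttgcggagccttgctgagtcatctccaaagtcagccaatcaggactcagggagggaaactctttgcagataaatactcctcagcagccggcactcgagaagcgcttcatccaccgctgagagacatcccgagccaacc
Isg15: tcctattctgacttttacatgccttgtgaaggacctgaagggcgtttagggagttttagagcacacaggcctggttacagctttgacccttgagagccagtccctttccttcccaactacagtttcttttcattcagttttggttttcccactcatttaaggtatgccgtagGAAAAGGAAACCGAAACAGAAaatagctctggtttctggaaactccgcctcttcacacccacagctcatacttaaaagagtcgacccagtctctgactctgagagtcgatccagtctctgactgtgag

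The motif lay in 7 of the 9 promoters listed for higher members, in 8 of 21 for lower members and in 12 of 25 for those not called. The shares were 77.8%, 38.1% and 48%, and 8.56% of all promoters in the table held it. Counted by gene, it lay in 7 of 9 higher members, 6 of 10 lower members and 12 of 22 not called. Promoters were in the table for 41 of the 57 members, and a member can have several, so these counts describe the list and are no test. Other lists were searched as well. TGANNNNGC lay in 43.3% of the promoters of tested iron genes and 51.7% of those of the NRF2 list, against 41.3% of all promoters. TCACNNNAC lay in 27.3% of those of cholesterol synthesis genes, against 11.2% of all.

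Genes upstream of the response were also mixed. Of 18 genes of interferon sensing, 3 were higher and 4 lower, with a median of -0.04, or -2.19 on the core scale. These counts moved with single libraries: 8 were higher without WT_TAM replicate 4 and 1 without WT_SP replicate 2, and the lower count was 2 without WT_SP replicate 1 and 1 without WT_SP replicate 2 or 3. Ifnar1, a chain of the interferon receptor, was at 232, 239, 207 and 76.1 CPM in WT_TAM and 87.8, 80.2 and 87.3 CPM in WT_SP (log2 fold change 1.01, SE 0.38, adjusted p = 0.0591), and without WT_TAM replicate 4 it was higher (log2 fold change 1.40, adjusted p = 2.23e-07).

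Of 19 genes that interferon gamma induces most strongly, 6 were higher and 1 lower, with a median of 0.41, or -1.77 on the core scale and -0.06 when scaled to library totals. Without WT_TAM replicate 4, 13 were higher and the median was 0.92, and without WT_TAM replicate 1 or 3 the median was 0.1 or 0.25. Cxcl9 was at 235, 137, 234 and 417 CPM in WT_TAM and 8.95, 8.57 and 9.9 CPM in WT_SP (log2 fold change 4.62, SE 0.33, adjusted p = 1.21e-05) and Gbp2, a GTPase of host defence, at 448, 376, 349 and 295 CPM in WT_TAM and 68.9, 48.1 and 53.8 CPM in WT_SP. Ciita, the master regulator of MHC class II genes, was the lower member, at 115, 65.8, 90.3 and 74.1 CPM in WT_TAM and 325, 307 and 354 CPM in WT_SP.

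MHC class II genes were called in both directions. Of 16, 7 were higher and 6 lower, with a median of 0.46, or -1.73 on the core scale and -0.01 when scaled to library totals. Cd74, the invariant chain, was at 12605, 9137, 12965 and 10170 CPM in WT_TAM and 9926, 11690 and 12232 CPM in WT_SP, with no difference beyond its spread (log2 fold change -0.02, SE 0.19, adjusted p = 0.947). H2-Ab1, a chain of the presenting molecule, rose (log2 fold change 0.80, SE 0.17, adjusted p = 0.00497). H2-Ob and H2-Oa, which form the inhibitor H2-O of B cells, were at 16, 14.4, 15.1 and 9.18 CPM in WT_TAM and 473, 532 and 575 CPM in WT_SP for H2-Ob and 4.05, 5.78, 5.86 and 3.28 CPM in WT_TAM and 136, 141 and 149 CPM in WT_SP for H2-Oa. H2-DMb2 fell by 3.39 on the log2 scale while its neighbour H2-DMb1 rose by 2.08, and reads of such close copies can be divided uncertainly between them.

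Of 20 MHC class I genes, 4 were higher and 1 lower, with a median of 0.22, or -1.97 on the core scale and -0.25 when scaled to library totals. Without WT_TAM replicate 4, 13 were higher, and without WT_SP replicate 1, 2 or 3 the count was 1, 2 or 1. Of 21 costimulatory and checkpoint genes, 12 were higher and 5 lower, with medians of 1.16 and -1.04. The lower count was 3 without WT_TAM replicate 2 or WT_SP replicate 1 or 3. Lilrb4a, an inhibitory receptor of myeloid cells, was at 1811, 1862, 1994 and 816 CPM in WT_TAM and 40.7, 49 and 45.8 CPM in WT_SP (log2 fold change 5.07, SE 0.31, adjusted p = 5.31e-06). Pdcd1lg2, which encodes PD-L2, was at 72.1, 69.1, 58.9 and 65.9 CPM in WT_TAM and 10.1, 9.5 and 8.8 CPM in WT_SP, and Tnfsf9, the ligand of 4-1BB, rose by 4.85. Cd274, which encodes PD-L1, was at 474, 438, 388 and 64.3 CPM in WT_TAM and 46.2, 57.8 and 54.8 CPM in WT_SP, and its call (adjusted p = 0.0169) was lost without WT_SP replicate 1 (adjusted p = 0.0602) or replicate 3 (adjusted p = 0.0516).

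Transcription factor genes of macrophages were higher in 31 of 54 and lower in 13, with medians of 1.17 and -0.87. Atf3, a stress factor, was at 754, 594, 599 and 390 CPM in WT_TAM and 7.68, 18.1 and 14.6 CPM in WT_SP (log2 fold change 5.43, SE 0.32, adjusted p = 4.23e-06), and Nfil3 and Mitf rose by 4.50 and 2.50. The immediate early genes Fos and Egr1, which tissue dissociation can also induce, rose by 2.43 and 1.81. Of 23 dissociation genes, 12 were higher and 1 lower, with a median of 0.68, or -1.51 on the core scale, and their part was not tested. The lower count was 2 without WT_TAM replicate 4 and 0 without WT_SP replicate 2 or 3. Id3, which tissue macrophages and B cells express, fell by 2.56 and Irf4 by 3.25 on the log2 scale.

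Of 24 genes of the mTOR and AKT pathway, in which Sin1 acts, 6 were higher and 6 lower, with a median of -0.12, or -2.26 on the core scale. On library totals alone 4 were higher and 11 lower, and on the core scale 1 was higher and 20 lower. Without WT_TAM replicate 4, 9 were higher and 8 lower. The counts were 5 and 6 without WT_TAM replicate 1, 2 or 3, and 5 and 4 without any WT_SP library. Sgk1, a kinase that the Sin1 complex activates, was at 1489, 1747, 1503 and 380 CPM in WT_TAM and 65.1, 90.7 and 87.8 CPM in WT_SP (log2 fold change 3.77, SE 0.50, adjusted p = 0.000384). Deptor, an inhibitor of the kinase mTOR, was at 31, 42.9, 42.4 and 33.3 CPM in WT_TAM and 7.05, 5.56 and 5.43 CPM in WT_SP. Prr5, a subunit of the same complex as Sin1, was at 2.03, 3.92, 2.8 and 3.44 CPM in WT_TAM and 92.3, 90.2 and 101 CPM in WT_SP, and its relative Prr5l at 77.5, 64.6, 72.8 and 39.3 CPM in WT_TAM and 19.9, 13.6 and 14.7 CPM in WT_SP. The groups did not overlap for any of these, nor for Rictor, the subunit that defines the complex. Rictor did not pass (log2 fold change -0.87, SE 0.36, adjusted p = 0.0808) unless WT_TAM replicate 4 was left out (log2 fold change -0.51, adjusted p = 0.00245).

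Genes outside the lists were named by size of change. Dab2, an adaptor for receptor uptake, was at 967, 1138, 1054 and 346 CPM in WT_TAM and 2.4, 0.849 and 1.03 CPM in WT_SP and Pdpn, a membrane glycoprotein of stroma and macrophages, at 232, 397, 286 and 332 CPM in WT_TAM and 0.705, 0.232 and 0.147 CPM in WT_SP. With Ccl8 and Ccl12, which rose by 8.55 and 8.33, and genes described above they made up the 15 largest increases among genes with a mean of at least 50 CPM in the higher group, outside the lists of other cells and without immunoglobulin and T cell receptor segments. The 15 largest decreases by the same rule held Slc40a1, Itgad, Hpgd, Cd5l and Spic of the red pulp and 10 other genes. These were Spib, Dtx1, Fcrl1, Srpk3, Ccr6, Tnfrsf13c, Lef1, Btla, Rasgrp3 and Cmah, whose log2 fold changes were -8.29, -7.90, -7.07, -6.95, -6.30, -6.17, -6.15, -6.06, -5.91 and -5.70. Several of them, such as Spib, Fcrl1, Tnfrsf13c and Btla, are known lymphocyte genes that the marker lists did not hold.

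By mean CPM over the 7 libraries, the 10 most abundant genes that rose were Lyz2, Fth1, mt-Co1, Actb, H2-Ab1, Ftl1, mt-Nd1, mt-Cytb, Spp1 and Psap. By the same mean, the 10 most abundant that fell were Igkc, Ighm, Ly6e, Coro1a, Shisa5, Serinc3, Jchain, Cd79a, Rac2 and Hmox1. Rac2, a GTPase of the blood cell skeleton, was at 576, 479, 523 and 354 CPM in WT_TAM and 1287, 1438 and 1462 CPM in WT_SP (log2 fold change -1.55, SE 0.20, adjusted p = 0.000334), and Coro1a, an actin regulator of leukocytes, fell by 0.78 on the log2 scale. Some of these calls were lost without 1 library. For mt-Co1 it was WT_TAM replicate 4 (adjusted p = 0.0651), and for mt-Nd1 and mt-Cytb WT_TAM replicate 2, WT_TAM replicate 4 or any WT_SP library (0.0525 to 0.105 and 0.0826 to 0.155). Actb lost its call without WT_SP replicate 2 or 3 (0.0636 and 0.0538), Serinc3 without any WT_SP library (0.0516 to 0.0703) and Ly6e without WT_SP replicate 3 (0.0565). Of these 20 genes, Spp1, Lyz2 and Hmox1 are macrophage genes described above, and Igkc, Ighm, Jchain and Cd79a belong to the B lineage.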

How the data were processed

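RNA of 4 WT_TAM and 3 WT_SP libraries was sequenced. The submitters' processing notes name TopHat2, HISAT, HISAT2, SAMtools, HTSeq, DESeq2 and mm10. The sources used here do not state their roles and versions. The deposited values, treated as a score, are reads that the authors scaled by gene length and library. Positive values were resolved into whole reads (126655 non-zero values, each within 8.26e-05 reads). The 12492 genes with values at or below 0 only were not used, and every numeric column matched a library (0 did not). Reads were turned into CPM (counts per 1000000 reads) with the factors found in the table, which equal medians of ratios. The design assumed this recovery.

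Tested were genes that reached, in 3 or more libraries, 10 reads scaled to a library of median size, and 15 reads in all. The test was run with limma 3.58.1 (R 4.3.3, trend, robust) on log2(CPM + 0.5), two-sided, at a Benjamini-Hochberg adjusted p of 0.05. Log2 fold changes on this scale understate changes of low genes. Standard errors (SE) are limma's. On simulated data with 12683 genes for WT_TAM against WT_SP, 98 genes were changed by 1 on the log2 scale and 102 by 2. Of these, 68.4% and 99% were recovered, with 7 false calls. A far smaller share was changed than was called in the data (46.1%), so recovery and false calls there may differ. Sums over lists were compared by an exact permutation test (scipy 1.17.1), and plots were drawn with matplotlib 3.10.9.

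The 47 lists held 1056 genes: 32 macrophage lists, 12 of other cells and 3 of RNA quality. Members and lists were chosen with earlier results of these data known. Named genes were the 3 of highest mean CPM in each list and members needed to describe it by function. To these were added, in each direction, the 15 largest changes without overlap among genes with at least 50 CPM in the higher group outside lists of other cells (no immunoglobulin or T cell receptor segments), and the 10 called genes of highest mean CPM. Some genes that this rule names are not reported here. In all, 19 alternatives were run on scaling, filter, pseudocount, model and left-out libraries.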

Additional observations from a re-analysis of the deposited data

Results flagged for a closer look

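In 234 groups of WT_TAM values, the library farthest from the others was compared with Dixon's limit, which chance passes in about 1 of 20 groups. It was passed in 20 groups, 14 times by WT_TAM replicate 4, 3 times by replicate 2, 2 times by replicate 3 and 1 time by replicate 1. WT_TAM replicate 4 lay apart with summed levels of 6254 CPM for clearance genes, 9716 for oxidative phosphorylation, 1279 for the mTOR and AKT pathway, 2978 for checkpoint genes, 163 for NK cell genes and 30747 for ribosomal protein genes. Among single genes, it lay apart with 3076 CPM of C1qa, 1.48 of Cd55, 1381 of Ifitm3, 816 of Lilrb4a, 1772 of Mt1, 19.2 of Prdm1, 48.4 of Sp100 and 645 of Trem2. WT_TAM replicate 2 lay apart with 22.9 CPM of Cd79a, 2.16 of Itgad and 8093 of Pkm. WT_TAM replicate 3 lay apart with 15.9 CPM of Timd4 and 319 of Vegfa, and replicate 1 with 0.0844 CPM of Ly6g, the other libraries being at 0. A WT_SP group of 3 libraries was too small for this comparison.

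Genes with values at or below 0 only, which were not used, held on average 3.09% of the reads of a library, 1.35% to 3.35% in WT_TAM and 4.37% to 5.03% in WT_SP.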

How the results depend on the processing

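The counts of 3054 higher and 2897 lower genes depended most on scaling, which sets what a level is relative to. Scaled to library totals alone they were 1985 and 4983, and scaled to the macrophage core 701 and 10750. Array weights gave 4410 and 4325. Leaving out 1 library gave 2323 to 4263 higher and 2079 to 4141 lower genes, the most without WT_TAM replicate 4. The other settings gave 2548 to 3316 higher and 2260 to 3062 lower genes. With the replicate number as a block, which leaves WT_TAM replicate 4 without a partner, the counts were 4303 and 4088. The numbers were not taken as pairing, since same-numbered libraries had deviations that correlated at 0.003, -0.067 and 0.096.

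List medians that were above 0 were below it on the core scale, besides the marginal zone, iron and tricarboxylic acid cycle medians given above, for monocyte-derived macrophage -0.63, lipid-associated -0.23, interferon gamma -1.77, MHC class II -1.73, MHC class I -1.97, clearance -0.64, lysosome -0.85, oxidative phosphorylation -1.71, cholesterol -0.77, fatty acid -1.55, ATF4 -1.38, NRF2 -1.25, cell division -1.32, transcription factor -0.87, checkpoint -1.04, mitochondrial genome -0.21 and dissociation -1.51. On library totals alone, medians that turned below 0 were, besides those 3, interferon gamma -0.06, MHC class II -0.01 and MHC class I -0.25. Log2 fold changes of named genes that changed sign on the core scale were Actb -1.35, Adgre1 -1.48, Blvra -1.58, Bst2 -1.15, C1qc -0.02, Ccnb2 -0.69, Chil3 -0.57, Csf1r -1.51, Cycs -1.34, Egr1 -0.38, Ftl1 -0.83, Gzmb -0.95, H2-Ab1 -1.40, H2-DMb1 -0.11, Ifi204 -0.50, Ifit1 -1.91, Ifnar1 -1.18, Il4ra -1.64, Irf7 -2.10, Isg15 -1.71, Mapkap1 -2.15, Mrc1 -1.10, Padi4 -0.21, Prdm1 -0.17, Prr5l -0.24, Psap -0.80, Scd2 -0.74, Sdc1 -0.82, Siglec1 -0.87, mt-Cytb -0.57 and mt-Nd1 0.00, and on library totals alone Ifit1 -0.26, Irf7 -0.38, Isg15 -0.02 and Mapkap1 -0.44. Other changes of sign were in genes that did not pass. With upper-quartile scaling they were Axl 0.02, Cd74 0.06 and Tgfb1 0.02. With the deposited values they were Axl 0.12, Ifit2 0.00 and Mapkap1 -0.23. With array weights they were Cd74 0.00, Ifit2 0.66, Mertk 0.25 and Slc2a3 0.61. With the replicate block they were Cd74 0.02, Ifit2 0.80, Mertk 0.21 and Slc2a3 0.63. With voom they were Ifit2 0.04. Leaving out 1 library changed the sign of 9 such genes, over ranges of -0.15 to 0.00 for Axl, -0.11 to 0.08 for Cd74, -0.22 to 0.90 for Ifit1, -0.47 to 0.80 for Ifit2, -0.06 to 0.31 for Irf7, -0.11 to 0.33 for Mapkap1, -0.35 to 0.21 for Mertk, -0.61 to 0.63 for Slc2a3 and -0.20 to 0.12 for Tgfb1. The cause of these changes was not tested. Depth limited the low values: 3 reads corresponded to 0.211 to 0.492 CPM, so levels near these are uncertain. The scalings do not say how much RNA a cell held.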
